A study of Mus musculus with 2 samples.

Results

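The genes described here encode the respiratory chain, the mitochondrial ribosome, the protein import machinery and the metabolite carriers of mitochondria, and all of them lie in the nuclear genome. They were taken by symbol as every annotated mouse protein-coding gene whose name starts with Nduf, Uqcr, Atp5, Mrpl, Mrps, Timm, Tomm, Slc25 or Cox and a digit, together with Sdha to Sdhd. The rule gave 257 genes of 21770 protein-coding genes. They were looked up in a list of RNA immunoprecipitation sequencing (RIP-seq) summits from mouse heart. Each summit is a single base at a high point of a peak of pulldown RNA called over Input RNA, and a peak can hold several. The pulldown was aimed at a tagged form of the acetyltransferase NAT10. Of the 257 genes, 17 had a summit (6.61%, exact 95% interval 3.90 to 10.4), against 4.22% of all protein-coding genes. The symbol prefix says nothing about how much of each mRNA the heart holds.

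Both libraries came from hearts of wild-type mice that had been injected under the skin at day 1 after birth with the adeno-associated virus AAV9-cTnT-FLAG-NAT10 and killed 20 days after injection. The cTnT promoter is active in heart muscle cells, so the tagged protein was made mainly in these cells, while the lysate of about 60 mg of tissue held all cells of the heart. Input RNA was purified from 10% of the lysate, and RIP RNA from what anti-FLAG beads took out of the remainder. There was 1 library of Input and 1 of RIP, both from hearts that carried the virus, and the samples analysed here include no pulldown from hearts without FLAG-NAT10, so binding to NAT10 and binding to the beads or antibody cannot be told apart. With 1 library of each there was no replicate check, no test was made, and every interval covers counting error only.

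NAT10 places an acetyl group on cytidines of RNA. Most subunits of the respiratory chain are encoded in the nucleus, made on cytosolic ribosomes and brought into mitochondria through the outer membrane translocase TOM (Tomm genes) and the inner membrane translocases TIM (Timm genes). The few subunits of the mitochondrial genome are made inside the organelle by its own ribosome, whose proteins (Mrpl for the large and Mrps for the small subunit) are imported too. Carriers of the Slc25 family move nucleotides, phosphate and metabolites through the inner membrane. Heart muscle is packed with mitochondria and draws most of its ATP from this system.

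The list held 2020 summits in 1600 peaks, and 20 of these summits lay in the 17 genes. The score of a summit was the authors' -log10 p or q of RIP over Input, and over the whole list its median was 12.5 and its quartiles were 5.83 and 28.3. The files used here hold no counts, so depth is unknown, and a score can rise with the abundance of an mRNA as well as with its enrichment. Of 13 cardiomyocyte markers 8 had a summit (61.5%, 31.6 to 86.1), led by Myh6, beside 4.22% of all protein-coding genes. Tnnt2, Actc1, Myl2, Myl3 and Pln were cardiomyocyte markers without a summit. Of 18 markers of other heart cells 2 had one, Col1a1 and Pdgfra (11.1%, 1.38 to 34.7), and this interval held the 4.22%. The markers were not matched for length and a summit is not a level of expression, so these counts do not show which cells the tissue held.

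By family, cytochrome c oxidase and its assembly genes (Cox) had the highest share among families of more than 4 genes, 5 of 28 (17.9%, interval 6.06 to 36.9). Its interval, 1 of 10 examined, lay above the 4.22% of all protein-coding genes and overlapped the interval of every other family. Both the rank and the place of the interval above the background rested on low scores. At or above the list's median score Cox had 1 of 28 (3.57%, 0.0904 to 18.3). This interval held the 2.29% of all protein-coding genes at that threshold. The Cox share was then below those of Timm (1 of 16, 6.25%), Mrpl (3 of 49, 6.12%), Slc25 (2 of 47, 4.26%) and Nduf (2 of 48, 4.17%), with overlapping intervals. This order rests on very few genes, and Ndufs1 counted for Nduf only through a summit in an intron. The Nduf genes, mostly of complex I, had 3 of 48 (6.25%, 1.31 to 17.2). The large ribosomal subunit (Mrpl) had 3 of 49 (6.12%, 1.28 to 16.9) and the small subunit (Mrps) 2 of 29 (6.90%, 0.846 to 22.8). Among the carriers (Slc25) 2 of 47 had a summit (4.26%, 0.520 to 14.5), and among Timm genes 1 of 16 (6.25%, 0.158 to 30.2). Of the 4 succinate dehydrogenase genes only Sdha had a summit, and Sdhb, Sdhc and Sdhd had none. No gene of cytochrome bc1 (Uqcr, 0 of 8, interval 0 to 36.9), ATP synthase (Atp5, 0 of 18, 0 to 18.5) or the TOM complex (Tomm, 0 of 10, 0 to 30.8) had a summit under its symbol. These intervals are wide enough to hold the background share, so the empty families were not shown to be below it.

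**Figure D1:**
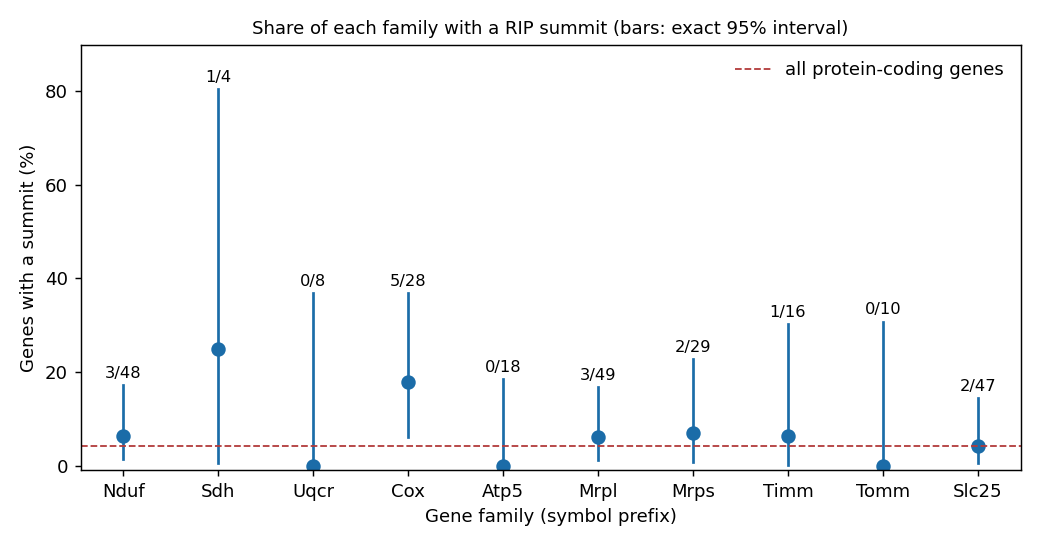
Percent of annotated genes with at least 1 RIP summit for each of the 10 gene families, with the number of genes above each bar. Points are shares, bars are exact 95% intervals, and the dashed line marks the 4.22% of all protein-coding genes. Over all scores the Cox interval alone lies above the line, and Uqcr, Atp5 and Tomm stand at 0. At or above the median score, which is not drawn, the Cox interval (3.57%, 0.0904 to 18.3) holds the matching 2.29% of all protein-coding genes.

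In complex I, the entry point of electrons from NADH, the summits lay in Ndufs1, Ndufa2 and Ndufaf4. Ndufs1 (ENSMUSG00000025968), the large iron-sulfur subunit that passes electrons on, had 2 summits on chromosome 1 (all positions are GRCm38). The stronger scored 17.3 at 63164895, which the table labels intron 6, and was the only intron summit among the 20. The weaker scored 6.45 at 63157212 in exon 11, at a base that the table also placed in the last exon of ENSMUSG00000084799. The table gives no strand of reads, so the part of each gene in this score cannot be told apart. The last exon of Ndufa2, a small accessory subunit, held a summit of 16.4 (chromosome 18, 36742605). That of Ndufaf4, which helps to assemble the complex and is not part of it, held one of 4.98 (chromosome 4, 24901971). The other 45 genes with the prefix Nduf, which is not limited to complex I, had no summit. Among them were Ndufa1, Ndufa3, Ndufa4, Ndufa4l2 and the core subunit Ndufv1.

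Complex II had the weakest signal of the 17 genes. Sdha, the flavin-bearing subunit that oxidises succinate, scored 1.91 at 74337455 on chromosome 13 in exon 6. It ranked 1950 of the 2020 summits, near the foot of the list.

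Complex IV, which hands electrons to oxygen, had 6 summits in 5 genes, and their strongest scores ran from 2.40 to 28.3. Cox7a2l, known for joining complexes III and IV into supercomplexes, had a summit of 28.3 in its 3' UTR (chromosome 17, 83502149). Stretches of its transcript are shared with 2 other annotated genes, so its reads may be split among them. Cox10, the enzyme that makes a precursor of the heme of the oxidase, had a 3' UTR summit of 11.1 (chromosome 11, 63963917). Structural subunits had lower scores. Cox5a scored 8.18 at 57530242 on chromosome 9 in exon 2. Cox6b1 scored 5.53 at 30623428 on chromosome 7 in exon 3 and 3.97 at 30617100 in the 3' UTR. Cox4i1 had 2.40 in its last exon (chromosome 8, 120674086), at a base also inside intron 1 of Gm20388. Only Cox7a2l scored above the list's median, and Cox10, Cox5a, Cox6b1 and Cox4i1 scored below it. The muscle forms Cox6a2, Cox7a1 and Cox8b had no summit, nor did Cox4i2, Cox5b, Cox5b-ps and Cox6a1.

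Neither complex III nor ATP synthase was represented under its symbols. Uqcrc1, Uqcrc2 and the Rieske iron-sulfur protein Uqcrfs1 had no summit, and neither did Uqcr10, Uqcr11 and Uqcrb. Atp5f1a and Atp5f1b, the catalytic head of ATP synthase, had none, and neither did Atp5f1c and Atp5f1d. A summit of 2.03 at 111961396 on chromosome 12 carried the older symbol 2010107E04Rik, whose identifier ENSMUSG00000021290 belongs to Atp5mj, a small membrane subunit of ATP synthase. Stretches of its transcript recur in 19 other annotated genes. Matching by identifier rather than by symbol therefore gave 1 of 18 for Atp5 and 18 genes in all. This Atp5mj summit lay in the 3' UTR, 22 bases from the end of the gene, and ranked 1940 of the 2020.

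The mitochondrial ribosome had 5 genes with a summit out of 78 (6.41%, 2.11 to 14.3), and 4 of its 5 summits were in 3' UTRs. Mrpl12 (ENSMUSG00000039640), the stalk protein of the large subunit that is also known to bind the mitochondrial RNA polymerase, scored 169.9 at 120488537 on chromosome 11. Its rank was 24 among the 919 protein-coding genes with a summit. The same base lay in exon 1 of ENSMUSG00000097658, a gene on the opposite strand whose start was 45 bases away, so here too the part of each gene in the score cannot be told apart. Mrpl28 had a 3' UTR summit of 35.2 (chromosome 17, 26126427), and Mrpl46 one of 20.6 in its last exon (chromosome 7, 78775523). In the small subunit, Mrps23 scored 15.9 at 88211261 and Mrps7 scored 11.2 at 115607115, both on chromosome 11 and both in the 3' UTR. All 3 large-subunit genes scored above the list's median of 12.5, as did Mrps23, while Mrps7 fell below it. Mrpl1, Mrpl2, Mrpl3, Mrpl4, Mrps2, Mrps5, Mrps6 and Mrps9 were among the genes without a summit.

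Of the import genes only Timm44, which tethers the matrix chaperone Hspa9 to the inner membrane channel, had a summit. It had 2 in the same peak on chromosome 8, with scores of 17.0 at 4259901 and 2.27 at 4260095, and both were in the last exon. The channel subunit Timm23 had none, and neither did Timm8a1, Timm8a2, Timm8b and Timm9. On the outer membrane, the receptors Tomm20 and Tomm70a, the pore Tomm40 and the small subunits Tomm5, Tomm6 and Tomm7 had none. Hspa9 itself, which lies outside the families described here, scored 57.5 in its 3' UTR.

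The carriers held the strongest summit of all. Slc25a4 (ENSMUSG00000031633), the ADP/ATP carrier of heart and skeletal muscle, had a summit of 248 in its last exon (chromosome 8, 46207499). This was rank 23 of the 2020 summits and rank 14 of the 919 genes. Slc25a34, another member of the family, had one of 32.6 in its 3' UTR (chromosome 4, 141619047). The second ADP/ATP carrier, Slc25a5, had no summit, nor did the aspartate-glutamate carriers Slc25a12 and Slc25a13, the oxoglutarate carrier Slc25a11, the carnitine carrier Slc25a20, Slc25a1 and Slc25a2. Slc25a3, the phosphate carrier that feeds ATP synthase, had none under its symbol, and no cell of the table named it. One of the summits listed outside genes, however, fell within the RefSeq bounds of Slc25a3 (91116574 to 91124046 on chromosome 10). It scored 44.7 at 91116969, and the 3' end of the gene was 395 bases away. With RefSeq bounds the carriers had 3 of 47 and the whole set had 19 of 257.

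**Figure D2:**
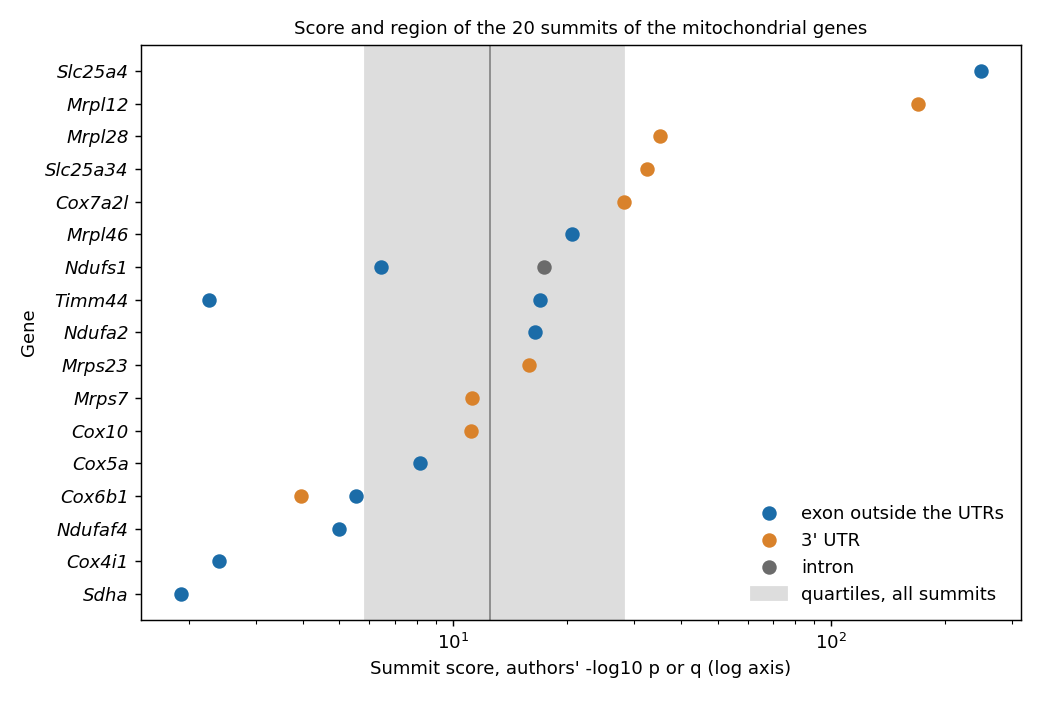
Score of each of the 20 summits (authors' -log10 p or q, log axis) by gene, coloured by the region that the table gives. The grey band spans the quartiles of all 2020 summits, 5.83 to 28.3, and the line their median of 12.5. Slc25a4 and Mrpl12 stand apart at 248 and 169.9, and Sdha is lowest at 1.91.

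For the strongest score of each of the 17 genes the median was 16.4, between quartiles of 8.18 and 28.3. For all 919 protein-coding genes with a summit the median was 14.2 and the quartiles were 6.97 and 28.2. The 2 spreads thus covered nearly the same range. Of the 20 summits 6 lay under the lower quartile of the list, 4 between it and the median, 5 between the median and the upper quartile and 5 above that. The 5 highest were Slc25a4, Mrpl12, Mrpl28, Slc25a34 and Cox7a2l, of which Cox7a2l stood just inside the upper quartile. At or above the median score 10 of the 257 genes had a summit, against 2.29% of all protein-coding genes, and at or above the upper quartile 5 did, against 1.04%. Counting only summits in exactly 1 gene gave 15 (background 3.8%), and only those in exons or UTRs gave 17 (background 3.99%). In all, 14 genes had 1 summit and 3 had 2 (82.4% with 1), beside 69.9% with 1 summit over all 919 protein-coding genes in the list. The 919 were not matched for length and had up to 235 summits in a gene, so these 2 shares are not a like comparison.

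By region, 11 of the 20 summits (55.0%, 31.5 to 76.9) lay in exons outside the UTRs, 8 in 3' UTRs (40.0%, 19.1 to 63.9), 1 in an intron and 0 in 5' UTRs. Averaged over the 19 summits outside introns, 3' UTRs made up 40.2% of the bases of the canonical transcripts and held 42.1% of these summits. Coding sequence made up 50.3% of the bases, and exons outside the UTRs held 57.9% of the 19. All summits in protein-coding genes stood at 53.7% in exons and 38.7% in 3' UTRs. Other genes of under 4000 exonic bases, the length range of the 17, had 30.6% (26.2 to 35.3) in exons and 61.7% (56.8 to 66.4) in 3' UTRs over 415 summits, and both pairs of intervals overlapped. The respiratory chain had 7 summits in exons, 3 in 3' UTRs and 1 in an intron, and the ribosome had 1 in an exon and 4 in 3' UTRs, counts too small to set apart. The 8 summits in 3' UTRs had a median score of 22.1 and the 11 in exons 6.45, although the highest score, that of Slc25a4, was in an exon.

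Most of the exon summits were in the last exon. Of the 20 summits 7 (35.0%, 15.4 to 59.2) carried the label last exon, beside 17.8% (14.3 to 21.9) in other genes of under 4000 exonic bases, with overlapping intervals. These were the summits of Slc25a4, Mrpl46, Ndufa2, Ndufaf4 and Cox4i1 and both of Timm44. The label depends on the transcript model. For 4 of the 7, those of Slc25a4, Mrpl46 and Timm44, the distance to the RefSeq end of the gene was shorter than the 3' UTR of the GENCODE canonical transcript. Had these 4 been counted as 3' UTR, the set would have had 12 of 20 there (60.0%, 36.1 to 80.9), beside 69.1% (64.3 to 73.5) in the other genes counted the same way.

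Most summits lay close to the 3' end of the gene. The median distance to the end of the RefSeq gene was 302 bases, from 123 for Cox4i1 to 21303 for the intron summit of Ndufs1, and 12 of 20 (60.0%, 36.1 to 80.9) lay within 500 bases. Over other protein-coding genes without Ttn the share within 500 bases was 26.9%, but over those of under 4000 exonic bases it was 55.0% (50.0 to 59.9), inside the interval of the set. Other short genes thus had a like share near the end. The exceptions were the summits of Sdha, 15200 bases from the end, Ndufs1, Cox6b1 in exon 3 (6457 bases), Ndufaf4 (3030), Cox5a (2185), Cox10 (1290) and Mrps7 (921).

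**Figure D3:**
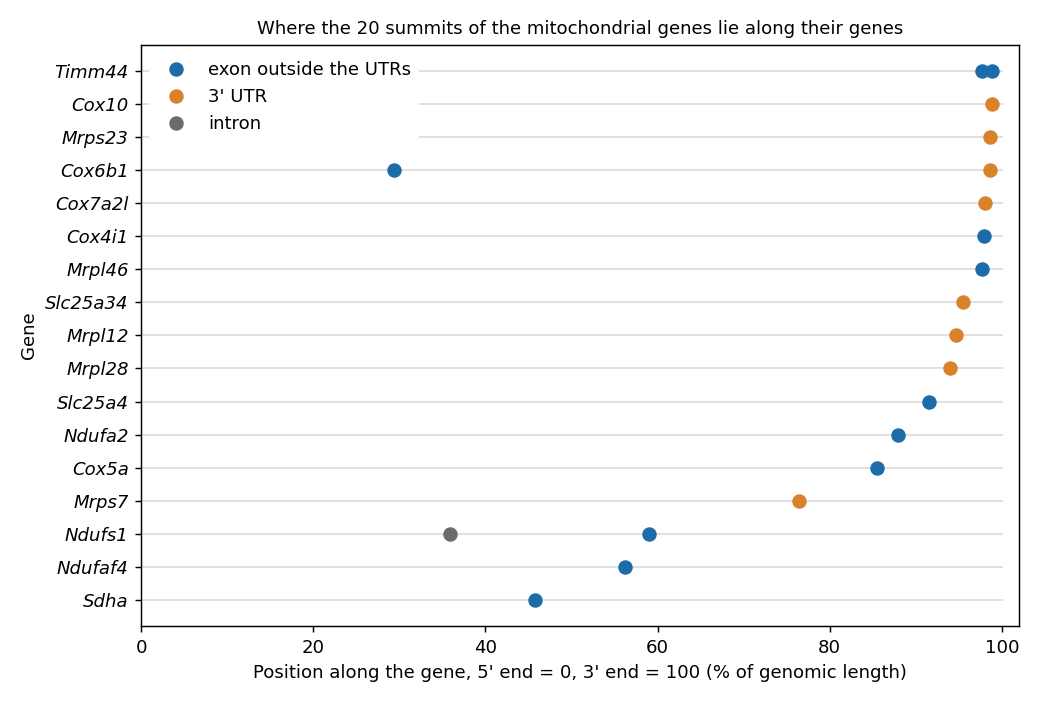
Position of each of the 20 summits along its gene, as percent of the genomic length of the RefSeq gene from the 5' end (0) to the 3' end (100), coloured by region. Of the 20, 12 lie in the last 10%, and Cox6b1, Ndufs1, Sdha and Ndufaf4 hold the summits in the first 60%.

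These genes are short, with a median exonic length of 1804 bases against 2914 over all protein-coding genes, and the share of genes with a summit rose with length over the whole annotation. It was 1.1% of genes under 1000 exonic bases, 2.07% from 1000 to under 2000, 3.24% from 2000 to under 4000 and 7.7% at 4000 or more. In the first class the mitochondrial genes had 4 of 62 (6.45%, 1.79 to 15.7) and other genes 0.947% (0.587 to 1.44). In the second class they had 7 of 80 (8.75%, 3.59 to 17.2) against 1.95% (1.56 to 2.39). In both classes the intervals did not overlap, whereas in the third class 6 of 81 (7.41%, 2.77 to 15.4) overlapped 3.19% (2.81 to 3.60). The 4 genes of the first class were Cox4i1, Cox5a, Cox6b1 and Ndufa2, and only Ndufa2 scored above the list's median. Of 34 mitochondrial genes of 4000 or more exonic bases none had a summit (interval 0 to 10.3), against 7.74% (7.13 to 8.39) of other genes. All classes rest on the length of the annotated canonical transcript. Which transcript forms the heart holds was not examined, so these lengths may differ from those of the heart's mRNAs. At or above the median score, the shares of all protein-coding genes in the 4 classes were 0.57%, 1.1%, 1.88% and 4.06%. In the first class the mitochondrial genes then had 1 of 62 (1.61%, 0.0408 to 8.66), which overlapped the 0.541% (0.280 to 0.943) of other genes. In the second class they had 6 of 80 (7.50%, 2.80 to 15.6) against 0.984% (0.716 to 1.32), and these intervals still did not overlap. The third class had 3 of 81 (3.70%, 0.770 to 10.4) against 1.86% (1.57 to 2.19), with overlap, and the last again had 0 of 34. The other genes include many that the heart does not express, and Input levels were not used here, so these shares cannot be told apart from shares of expressed mRNA.

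**Figure D4:**
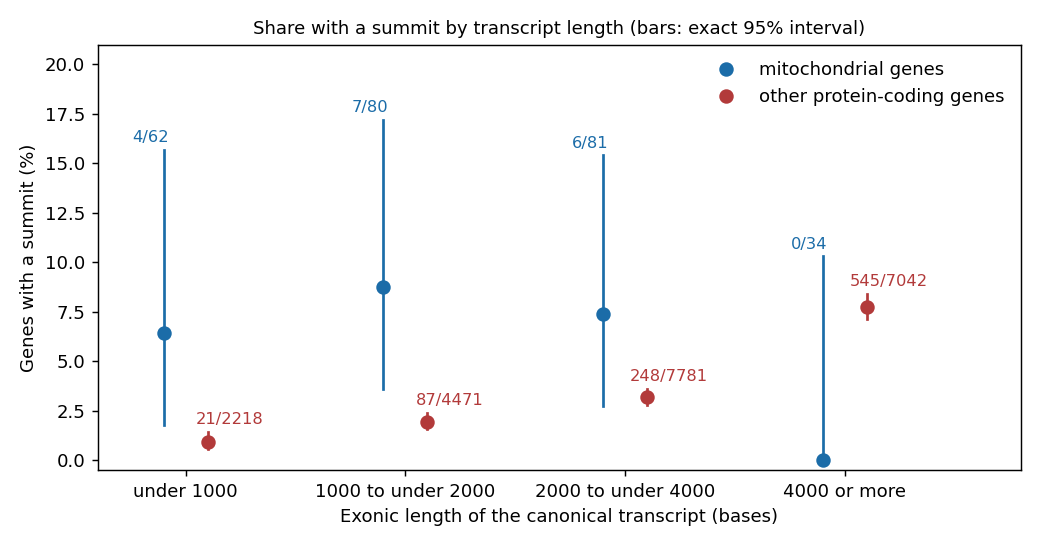
Percent of genes with a summit by exonic length of the canonical transcript (bases), for the 257 mitochondrial genes and for all other protein-coding genes, with counts above each bar and exact 95% intervals. The shares of other genes rise from 0.947% to 7.74%, while the mitochondrial genes stay between 6.45% and 8.75% in the first 3 classes and stand at 0 of 34 in the last.

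Inside the set, genes with and without a summit had close median exonic lengths of 1821 and 1794 bases. The median 3' UTR was 673 bases in the first group and 745 in the second. Many of these genes have processed pseudogenes or repeats, and 74 of the 257 had a stretch of at least 150 bases, the read length, at 95% identity or more in another annotated gene at another locus. Of these 74, 1 had a summit (1.35%, 0.0342 to 7.30), and this was Cox7a2l. Matched by identifier, Atp5mj joined it, which gave 2 of 74 (2.70%, 0.329 to 9.42). Of the 183 without such a stretch, 16 had one (8.74%, 5.08 to 13.8). The intervals overlapped, and the part of copies in the missing summits was not tested. Slc25a5 was among the genes with such a copy and Slc25a4 was not.

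Other genes of the same pathways were set beside these families. Electron carriers and assembly factors outside the prefixes had 1 of 31 with a summit (Etfb at 1.79), factors of mitochondrial translation 1 of 14 (Mtif3, an initiation factor, at 10.7), and import genes outside Timm and Tomm 1 of 18 (Hspa9). Other membrane channels, carriers and enzymes with symbols outside the prefixes had 2 of 20. The 2 were the uncoupling protein Ucp2 at 174 and the carnitine palmitoyltransferase Cpt2 at 46.2, both in 3' UTRs. The counts were higher for regulators of mitochondrial genes, 4 of 16 (25.0%, 7.27 to 52.4), and for dynamics and cristae, 3 of 10 (30.0%, 6.67 to 65.2). The first were the coactivators Ppargc1b at 105 and Ppargc1a at 7.17, the DNA helicase Twnk at 26.6 and the DNA-packaging factor Tfam at 7.97. The second were the fusion proteins Mfn2 at 272, above every one of the 17 genes, and Mfn1 at 14.2, and the prohibitin Phb1 at 49.1. Their intervals lay above the 4.22% of all protein-coding genes and overlapped that of the 257 genes (3.90 to 10.4). These lists were chosen with earlier results of these data known and were not matched for length, and among genes of 4000 or more exonic bases the background was 7.7%. By contrast the 6 genes of the mitochondrial genome with a summit, of 13, scored 955 or more, above all 17 nuclear genes.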

How the data were processed

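RNA of 1 Input and 1 RIP library was sequenced as paired reads of 150 bases. Reads were processed with fastp, BWA 0.7.12, MACS2 2.1.0 and HOMER, per the submitters' processing notes. The authors deposited 1 table of summits, and its score is a -log10 p-value or q-value whose header was lost, so which of these it is stays unknown. The score was used only to describe and rank. The notes name GRCm39, but 20 of 20 summits described here lay inside their gene on RefSeq GRCm38 and 2 of 20 on GENCODE GRCm39, so positions are GRCm38.

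Genes were matched by symbol, once per summit. Gene types, strand and canonical transcript lengths came from GENCODE mouse release 39, which held 973 of the 990 identifiers. All protein-coding genes were counted by identifier. Near-identical stretches were found with BLAST 2.17.0. Shares have exact (Clopper-Pearson) 95% intervals from SciPy 1.17.1, and the counting was tested on simulated data. Every gene with a summit is named, as are up to 4 without one per family and a fixed list of heart subunits and carriers, of which an item is not reported here. Genes and lists were chosen with earlier results of these data known. Sequence around summits was not used here. Alternatives changed the score threshold, the gene assignment, the regions, the merging of summits and the number of annotated genes.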

Additional observations from a re-analysis of the deposited data

How the results depend on the processing

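The score threshold changed more values than any other alternative did. At or above the median score 10 genes had a summit (3.89%, against 2.29% of all protein-coding genes) and Sdh had 0. Cox had 3.57% (0.0904 to 18.3), an interval that then held the 2.29%, and its share was no longer the highest. Genes of under 1000 exonic bases had 1.61% (a threshold chosen for the length classes after seeing the data). At or above the upper quartile 5 genes had one (1.95% against 1.04%), Nduf, Sdh, Mrps and Timm had 0, Cox had 3.57%, 80.0% of summits were in 3' UTRs and the median strongest score was 35.2. Assignment by the closest transcription start gave 18 genes, with 0 for Sdh, but 15 of its 24 summits lay in another gene or in none, and it gives no region. The other 98 of 111 recomputed values stayed inside the interval of the reported value, or within 1.5 times the count. These included matching by identifier, RefSeq bounds, summits in exactly 1 gene (3.8% of all protein-coding genes), summits in exons and UTRs (3.99%), core subunits only, merging within 200 bases and, chosen after seeing the data, last exon summits near the gene end counted as 3' UTR, the remaining length classes at the median score and near-identical copies matched by identifier. Among the 98 values, the shares of 0 for Uqcr, Atp5 and Tomm could not fall under a stricter filter, and many intervals were wide. The number of unchanged values is therefore no measure of stability. No paired analysis was possible because each group held 1 library. Depth is unknown, since the files used here give no counts.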
